A study of Mus musculus with 8 samples.

Results

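The genes of the proteasome were followed between spermatocytes and spermatids of mice that lack Sam68. They are the 49 genes, of 56324 gene models in the table, whose symbol is Psma to Psmg with a number, and all 49 were present once each. They comprise the alpha and beta rings of the 20S core, the testis alpha subunit Psma8, the 19S cap, the activators, the inhibitor Psmf1 and the assembly chaperones. Psmc3ip, a partner of the meiotic recombinase that shares the symbol stem, is taken in by the rule but is no subunit. The germ cells came from C57BL/6 males aged 12 weeks with the genotype Sam68 -/-, and the 2 fractions, spermatocytes and spermatids, were separated by sedimentation under gravity (Sta-put). There were 4 libraries of polyadenylated RNA of each fraction, numbered 1 to 4 by accession. Every library used carries the same deletion, so the comparison is of cell types within the mutant, and no other genotype was analysed here. Nothing in the labels ties the libraries of a fraction to different animals. The spread behind each p-value is therefore that of these libraries and may be technical.

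The proteasome is the protease that destroys proteins tagged with ubiquitin. Its 20S core is a barrel of stacked rings, with alpha subunits outside, which gate the entrance, and beta subunits inside, of which the products of Psmb5, Psmb6 and Psmb7 carry the active sites. The 19S cap recognises ubiquitin, removes it and unfolds the substrate with a ring of ATPases, and other activators can take its place at the end of the barrel. In the testis the alpha subunit encoded by Psma8 can stand in for that of Psma7, and the activator PA200, encoded by Psme4, is known for its part in the removal of histones.

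The libraries held 49000266 to 93975960 recovered reads each. Values are normalized counts, reads divided by a size factor per library. Khdrbs1, the gene of Sam68, stood at 3421 to 4985 normalized counts in the spermatocyte libraries and at 625 to 1129 in the spermatid libraries. The labels do not say which stretch of the gene was deleted, so its total does not check the genotype. The labelled cell types were checked against lists of marker genes. All 10 spermatid markers found in the table were called higher in spermatids, and their summed level ranged from 18686 to 33749 normalized counts across the spermatocyte libraries, against 521422 to 628674 across the spermatid ones. Of 7 spermatocyte markers 3 were called lower in spermatids and 4 were not called, and their sum was 201286 to 248435 against 32617 to 50527. Piwil1 made up most of the sum in spermatocytes (118349 to 166551) but little of it in spermatids (3574 to 5835). There Sycp1 (8626 to 14192) and Sycp2 (12568 to 15292) were the largest parts. Spermatocyte library 4 stood apart from the other spermatocyte libraries in the genes of meiotic chromosome pairing. Sycp1 stood there at 1653 normalized counts (12680 to 26690 elsewhere among spermatocytes), Sycp3 at 3303 (15595 to 17490), Hormad1 at 1395 (6447 to 9289) and Meiob at 118 (446 to 687), while its Piwil1 was the highest. Sycp1, Sycp3, Hormad1 and Meiob were also lower there than in any spermatid library (8626 to 14192, 4421 to 11243, 1736 to 4365 and 281 to 1273). Its Sycp2 (13356) lay within the spermatid range (12568 to 15292). The calls were also made without spermatocyte library 4, and members that changed between passing and not passing are named. Markers of other cells were present too: 8 Sertoli cell markers, all called lower in spermatids, summed to between 25238 and 127784 for spermatocytes and between 1381 and 4594 for spermatids, and 9 macrophage and blood markers summed to 149 to 190 and 2662 to 5554. The 5 Leydig markers found summed to 3331 to 6997 and 185 to 1099, the 5 spermatogonial markers to 592 to 1196 and 1980 to 4051, and the 4 peritubular and endothelial markers to 422 to 948 and 834 to 1542.

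Most proteasome genes were not called between the cell types. The testis subunit gene Psma8 and the chaperone gene Psmg3 were far lower in spermatids, while the gankyrin gene Psmd10, the alpha subunit gene Psma6 and the inhibitor gene Psmf1 were far higher. A gene was called when limma's adjusted p was below 0.05 over all tested models and the log2 fold change, on the log2(normalized count + 1) scale, was at least 1 in size. Of 47 tested members 6 were called higher in spermatids, Psma6, Psmb8, Psmc2, Psmd10, Psme4 and Psmf1, and 6 lower, Psma2, Psma8, Psmb1, Psmd1, Psmd14 and Psmg3. The called members make up 25.5%, beside 62.3% of all tested models, and 12.8% were called in each direction, beside 32.5% of all models higher and 29.8% lower. Psmb8 passed the filter on low values only through the spermatids, where it is high. The filter thus favoured a difference in Psmb8 in advance, and its call is given as a description. Without Psmb8, 11 of 46 members (23.9%) were called, 5 of them higher (10.9%). Without spermatocyte library 4 the same 6 members were higher and the same 6 lower. At any fold size 29 members, or 61.7%, passed the adjusted p, beside 72.3% of all models. Of these 9 were higher in spermatids and 20 lower, beside 36.5% and 35.8% of all models. Without spermatocyte library 4, Psmb4, Psmb10, Psmd4, Psmd5, Psmd12 and Psmg4 no longer passed (limma adjusted p from 0.053 to 0.084). Psma3, Psmd6 and Psmd11 did not pass with all libraries but passed without spermatocyte library 4 (0.040 to 0.048, limma). The cell types did not overlap for 23 members (48.9%), beside 66.4% of all models. These were 8 higher and 15 lower members, beside 34.2% and 32.2% of all models. The median log2 fold change was -0.26 over the members and -0.01 over all tested models. Psmb9 and Psmb11 were too low to be tested.

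**Figure D1:**
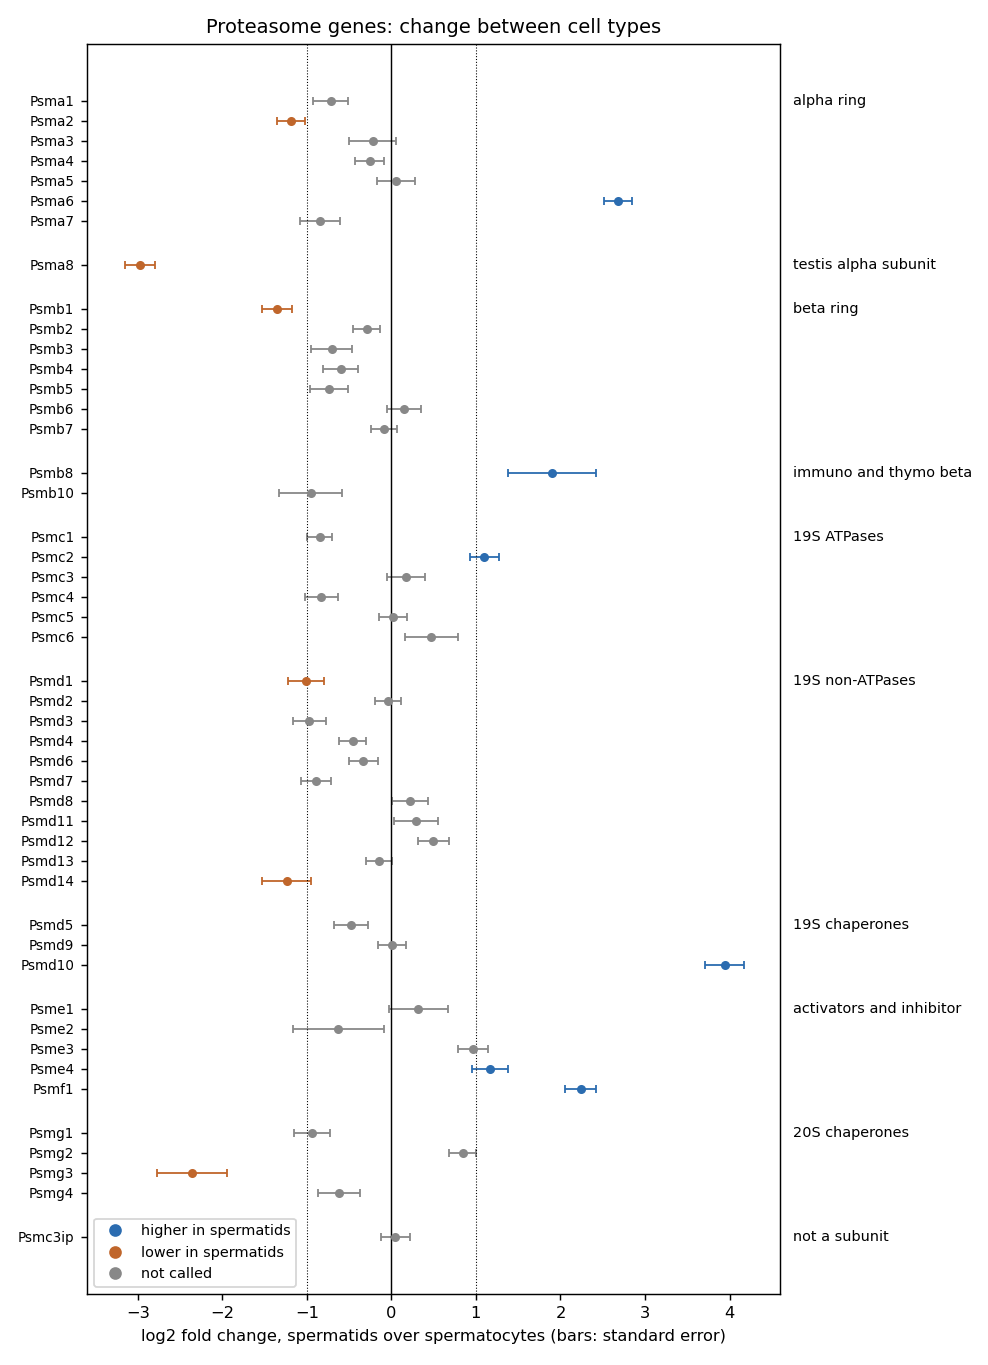
Log2 fold change of spermatids over spermatocytes for the 47 tested proteasome genes, arranged by their place in the complex, with standard errors (4 libraries of each cell type). Dotted lines mark a log2 fold change of 1 in either direction. The 6 called rises and 6 called falls lie scattered over the groups, from Psma8 at -2.97 to Psmd10 at 3.94.

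The counts depend on the scale. As deposited, 6 members were higher and 6 lower. When libraries were set to equal total reads 4 were higher and 18 lower, with quantile normalization 4 and 17, and after a correction for GC content 4 and 8. The lower members were then 38.3%, 36.2% and 17.02% of those tested, beside 37.4%, 36.2% and 25.1% of all models. The higher members were 8.51% each time, beside 27.8%, 29.1% and 32.8%. These scalings also move the middle of all genes: the median over all tested models was -0.44 with equal totals and -0.36 with quantile normalization, where the members' medians were -0.69 and -0.62. The GC correction moved it from 0.25 to 0.04 over the 17045 models with a GC content, and the members' median from -0.26 to -0.58. Psmc2 and Psme4 were below the fold threshold under each of these 3 scalings. Changes in level are of RNA in a bulk fraction, in which fewer cells of a type and less RNA per cell cannot be told apart.

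The promoters of the called members with a window in the RefSeq table are shown, so that those called higher and lower can be set side by side. Each line gives the 150 bases before the RefSeq transcription start, 5′ to 3′ on the gene's strand, on GRCm38.p6 (mm10). Capitals mark matches, on either strand, to CCGGAAG, the core bound by ETS factors, or to CCAAT, the CCAAT box. The first 6 genes were called higher and the last 4 lower, and Psmb8, Psmf1, Psmd1, Psmd14 and Psmg3 hold no match in this stretch.
Psma6, chr12:55398675-55398824, plus strand: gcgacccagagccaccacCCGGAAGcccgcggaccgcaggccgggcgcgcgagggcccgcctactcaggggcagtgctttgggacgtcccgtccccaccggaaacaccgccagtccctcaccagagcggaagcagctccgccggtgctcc
Psmb8, chr17:34198045-34198194, plus strand: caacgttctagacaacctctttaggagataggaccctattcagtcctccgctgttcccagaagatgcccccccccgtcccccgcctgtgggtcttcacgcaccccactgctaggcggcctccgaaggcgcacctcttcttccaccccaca
Psmc2, chr5:21785125-21785274, plus strand: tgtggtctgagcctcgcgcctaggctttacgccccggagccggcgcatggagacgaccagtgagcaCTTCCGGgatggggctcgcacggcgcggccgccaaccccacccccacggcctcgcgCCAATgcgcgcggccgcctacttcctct
Psmd10, chrX:140956712-140956861, minus strand: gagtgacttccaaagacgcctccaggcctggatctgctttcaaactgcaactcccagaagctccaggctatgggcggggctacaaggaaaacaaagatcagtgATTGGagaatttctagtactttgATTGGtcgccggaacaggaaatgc
Psme4, chr11:30771625-30771774, plus strand: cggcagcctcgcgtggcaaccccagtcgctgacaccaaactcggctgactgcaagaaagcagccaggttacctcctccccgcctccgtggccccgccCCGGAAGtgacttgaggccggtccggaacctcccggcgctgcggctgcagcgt
Psmf1, chr2:151741311-151741460, minus strand: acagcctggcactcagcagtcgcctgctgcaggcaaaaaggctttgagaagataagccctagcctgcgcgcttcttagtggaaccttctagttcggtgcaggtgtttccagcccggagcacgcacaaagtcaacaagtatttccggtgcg
Psma2, chr13:14613092-14613241, plus strand: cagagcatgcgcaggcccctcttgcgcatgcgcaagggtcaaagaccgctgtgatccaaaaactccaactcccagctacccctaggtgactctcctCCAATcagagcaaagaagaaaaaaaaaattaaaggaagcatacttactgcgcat
Psmd1, chr1:86064469-86064618, plus strand: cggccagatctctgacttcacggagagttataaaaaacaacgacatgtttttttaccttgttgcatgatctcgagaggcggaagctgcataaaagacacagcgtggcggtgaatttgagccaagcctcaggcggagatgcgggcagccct
Psmd14, chr2:61711544-61711693, plus strand: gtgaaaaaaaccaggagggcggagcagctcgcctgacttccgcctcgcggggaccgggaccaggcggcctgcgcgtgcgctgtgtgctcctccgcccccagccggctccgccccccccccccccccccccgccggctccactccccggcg
Psmg3, chr5:139826895-139827044, minus strand: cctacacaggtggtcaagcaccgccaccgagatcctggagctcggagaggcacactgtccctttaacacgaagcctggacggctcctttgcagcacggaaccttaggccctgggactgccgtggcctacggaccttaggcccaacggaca

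Windows of 300 bases around the start were found in the RefSeq table for 41 of the 49 members. CCGGAAG, a motif chosen after the windows were seen, was in 15 of them (36.6%), against 8.86% of all 32851 windows. It was in 3 of the 6 windows of genes called higher and in 1 of the 4 of genes called lower for which a window was found. TGACNNNGC, the core of the antioxidant response element through which the factor encoded by Nfe2l1 drives proteasome genes, was in 6 member windows (14.6%; Psmb5, Psmb6, Psmc6, Psmd9, Psmd12 and Psme4) against 12.4% of all. CCAAT was in 14 (34.1%) against 37.4%, and the cAMP response element TGACGTCA in 0 against 1.79%. Both strands were searched and each motif was counted on its own, so matches to different motifs may share bases. Each member was counted by a single window, the nearest to the start of its deposited model. The background counts every window in the RefSeq table, so the shares may count unlike units. A match describes letters in a window, not a bound site.

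In the alpha ring 1 of 7 genes was called higher, 1 lower and 5 neither. Here and in each group below the counts are small. They stand beside 32.5% of all tested models called higher and 29.8% called lower. Psma6, which encodes the alpha1 subunit, lies on chromosome 12 from 55398825 to 55418459 (mm10). It had 4018, 4001, 3772 and 2930 normalized counts in the spermatocyte libraries, in order of number, and 20566, 22531, 24941 and 25980 in the spermatid ones. The lowest spermatid library stood 5.12-fold above the highest spermatocyte library. The mean rose 6.39-fold, with 3680 ± 513 against 23505 ± 2434 (SD over 4 libraries). In limma the log2 fold change was 2.68 (SE 0.17, adjusted p = 3.9e-08), and its lowest value under an alternative was 2.17.

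Psma2, for the alpha2 subunit, which sits beside alpha1 in the ring, went the other way. It had 2303, 2281, 2873 and 2555 normalized counts in spermatocytes and 1285, 1084, 995 and 1026 in spermatids, with no overlap. Its log2 fold change was -1.19 (SE 0.17, limma adjusted p = 4.3e-05). The Psma2 model, on chromosome 13 from 14613240 to 14674238, contains another gene, AW209491, which was also lower in spermatids (1048 against 386 on average).

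The other 5 genes of the standard ring were not called. Psma1 (-0.72) and Psma7 (-0.84) passed the adjusted p (0.0074 and 0.0072) but not the fold threshold, and both were called lower with equal total reads and with quantile normalization. Without spermatocyte libraries 3 and 4, the richest in Sertoli markers, Psma7 was at -0.48 and did not pass (limma adjusted p = 0.062). Psma3 was at -0.22, Psma4 at -0.26 and Psma5 at 0.05, and none of these passed the test. Psma3 had 385 normalized counts in spermatocyte library 4 against 728 to 947 in the other spermatocyte libraries, and without that library it was at -0.50 and passed the adjusted p (0.048, limma) alone. Summed over the 7 genes the alpha ring held 11561 ± 926 normalized counts in spermatocytes, against 28417 ± 1995 in spermatids (SD over 4 libraries), and Psma6 alone made up most of the spermatid sum.

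The testis subunit gave the largest fall among the members. Psma8 (chromosome 18, 14706150 to 14762299) encodes an alpha subunit made in germ cells, close in sequence to that of Psma7. It had 8246, 8697, 9069 and 7923 normalized counts in the spermatocyte libraries. In the spermatid libraries it had 1226, 1334, 889 and 939. The spermatocyte libraries lay within a narrow band far above all spermatids. The mean fell 7.73-fold, with 8484 ± 503 against 1097 ± 217 (SD over 4 libraries). In limma the log2 fold change was -2.97 (SE 0.18, adjusted p = 2.7e-08), and it stayed between -3.42 and -2.88 over the alternatives.

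Psma7, the broadly expressed counterpart, had 677, 870, 1283 and 1271 normalized counts in spermatocytes and 648, 540, 473 and 558 in spermatids. The lowest spermatocyte library was the one with the fewest Sertoli markers, library 1 (25238), and the 2 highest were libraries 3 (127784) and 4 (62816). The part of Sertoli cells in this was not tested. Psma8 showed no such order, since libraries 1 and 2 lay between libraries 4 and 3.

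Psma8 was the more abundant of the pair in every library. Of the summed normalized counts of both genes it held 89.3% ± 2.88 in spermatocytes, against 66.1% ± 3.58 in spermatids (SD over 4 libraries). Per length of exon its level was 4.35 to 8.49 times that of Psma7 across the spermatocyte libraries and 1.17 to 1.72 times across the spermatid ones. The log2 ratio was 3.10 ± 0.44 in spermatocytes, against 0.97 ± 0.24 in spermatids, a difference of -2.13 with no overlap between the cell types. The exact two-sided permutation test gave p = 0.0286, the smallest that 4 libraries against 4 can give, and 0.0714 after Benjamini-Hochberg adjustment over the 5 pairs compared. The adjusted value did not pass the threshold.

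**Figure D2:**
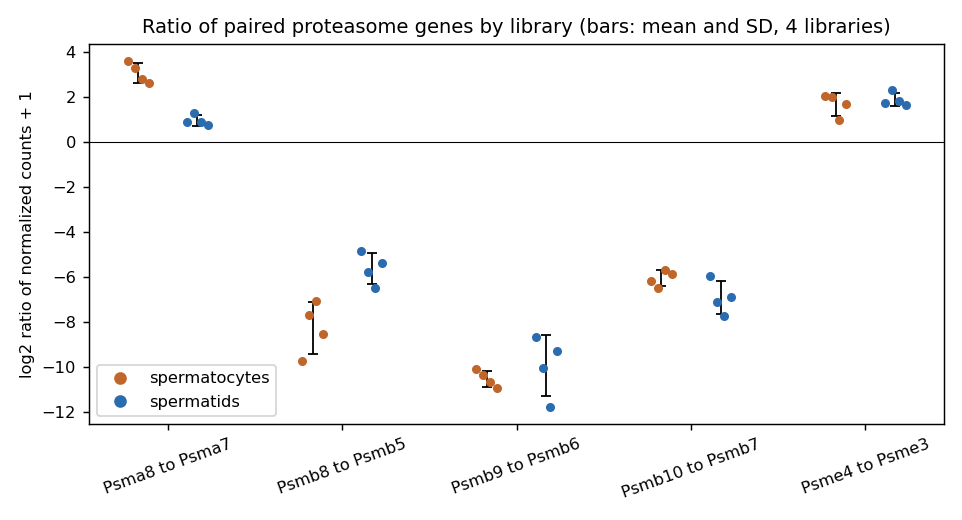
Log2 ratio of normalized counts + 1 for 5 pairs of proteasome genes in each library, with mean and SD of 4 libraries. The ratio of Psma8 to Psma7 is at least 2.64 in each spermatocyte library and at most 1.30 in each spermatid library. That of Psme4 to Psme3 overlaps between the cell types.

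In the beta ring 1 of 7 genes was called lower and 0 higher. Psmb1, for the non-catalytic beta6 subunit (chromosome 17, 15475721 to 15498298), was the called gene. It had 5948, 6040, 5257 and 6522 normalized counts in spermatocytes and 2866, 2558, 1886 and 2082 in spermatids, with no overlap. The fall was 2.53-fold (limma log2 fold change -1.35, SE 0.18, adjusted p = 2.1e-05).

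None of the 3 genes of the active sites was called on the deposited scale. Psmb5, for the chymotrypsin-like site, had 2215, 1847, 1477 and 2939 normalized counts in spermatocytes and 1308, 1241, 1417 and 999 in spermatids. The cell types narrowly did not overlap, with 1417 as the highest spermatid and 1477 as the lowest spermatocyte value, and the log2 fold change of -0.74 (SE 0.22) passed the adjusted p (0.011, limma) but not the fold threshold. Psmb6, for the caspase-like site, had 10009, 10447, 8992 and 15455 against 9775, 12927, 14014 and 12252. Psmb7, for the trypsin-like site, had 6976, 6525, 6574 and 8069 against 5909, 7015, 6805 and 6687. Neither passed the test: both overlapped between the cell types and stood at log2 fold changes of 0.14 and -0.09. Among the structural subunits Psmb3 (-0.71) and Psmb4 (-0.60) passed the adjusted p alone and Psmb2 (-0.29) did not. The sum of the 7 beta ring genes was 34131 ± 5923 normalized counts in spermatocytes, against 27969 ± 1348 in spermatids (SD over 4 libraries).

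The immunoproteasome, in which interferon-induced beta subunits replace the standard active sites, had low levels. Psmb8, the counterpart of Psmb5, had 1.61, 7.85, 10.1 and 6.85 normalized counts in spermatocytes, the first being 2 reads. In spermatids it had 44.8, 21.5, 15.0 and 22.9, and the cell types did not overlap. The log2 fold change was 1.90 (SE 0.52). It is given as a description, since the spermatid libraries alone took Psmb8 past the filter on low values. Of the 9 macrophage and blood markers 6 were called higher in spermatids, 1 was not called and 2, the haemoglobin genes Hbb-bs and Hba-a1, were too low to test, with at most 13.4 normalized counts in any library. Their sum was also highest in spermatid library 1 (5554) and ranged from 2662 to 4304 in the other spermatid libraries. Their part in the level of Psmb8 was not tested.

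Psmb9, the counterpart of Psmb6, had 10, 7, 4 and 6 recovered reads in spermatocytes and 26, 12, 2 and 17 in spermatids, with overlap. Psmb10, the counterpart of Psmb7, had 95.1, 71.6, 129 and 137 normalized counts against 94.0, 49.5, 31.5 and 55.5. Its mean was lower in spermatids but the cell types overlapped (limma log2 fold change -0.96, SE 0.37, adjusted p = 0.035). Without spermatocyte library 4 Psmb10 did not pass (limma adjusted p = 0.080). Psmb11, the thymus form, had between 0 and 10 recovered reads. The log2 ratio of Psmb8 to Psmb5 was -8.26 ± 1.15 in spermatocytes, against -5.62 ± 0.69 in spermatids, without overlap (exact two-sided permutation p = 0.0286, adjusted 0.0714). This ratio is also given as a description, and its p-value is no separate evidence of a difference. The spermatid libraries alone took Psmb8 past the filter, and the spermatocyte ratios rest on 2 to 9 recovered reads of Psmb8. The ratios of Psmb9 to Psmb6 (difference 0.58, exact p = 0.43, adjusted 0.54) and of Psmb10 to Psmb7 (difference -0.87, exact p = 0.086, adjusted 0.14) overlapped between the cell types.

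**Figure D3:**
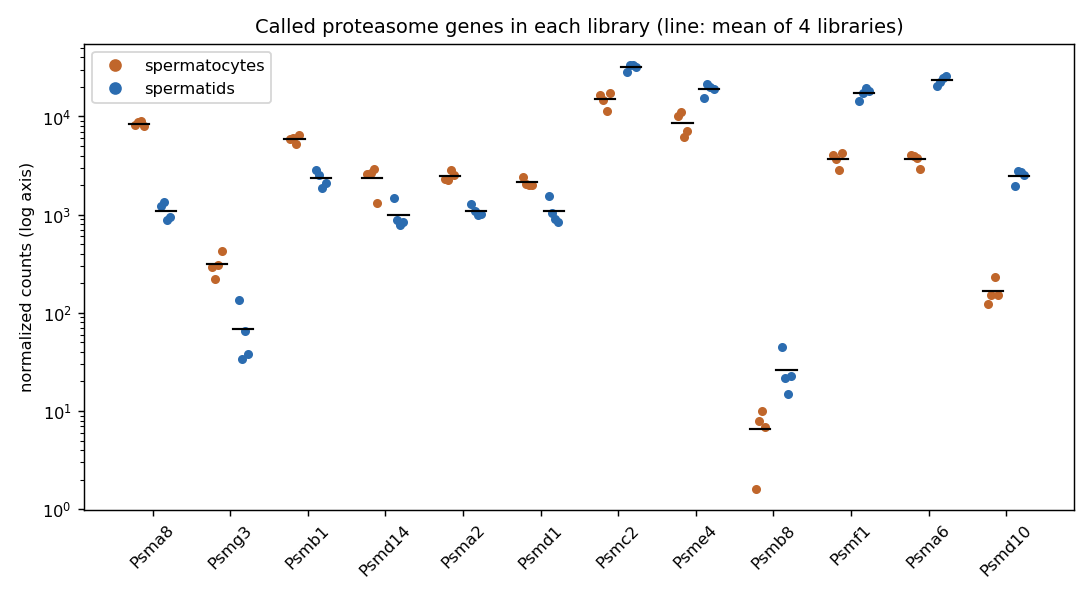
Normalized counts (log axis) of the 12 called proteasome genes in each of the 4 libraries of each cell type, ordered from the largest fall to the largest rise. Points are libraries 1 to 4 from left to right and lines are means. The cell types do not overlap except for Psmd14, where spermatocyte library 4 (1305) lies below spermatid library 1 (1488).

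Of the 6 ATPase genes of the 19S cap 1 was called higher and 0 lower. Psmc2, for the subunit Rpt1 (chromosome 5, 21785282 to 21803787), had 16598, 14714, 11397 and 17361 normalized counts in spermatocytes and 28455, 33217, 33327 and 32269 in spermatids. The cell types did not overlap, at a log2 fold change of 1.10 (SE 0.17, limma adjusted p = 1.0e-04). The call rested near the threshold: it was 0.97 without spermatocyte library 3, and 0.51 to 0.66 under the 3 scalings named above. Psmc1 (-0.85) and Psmc4 (-0.83), for Rpt2 and Rpt3, passed the adjusted p below the fold threshold and did not overlap. Psmc3 (0.17), Psmc5 (0.02) and Psmc6 (0.47) did not pass. Psmc6 had 1165 normalized counts in spermatocyte library 4 and 2801 to 4109 in the other spermatocyte libraries, and without library 4 its log2 fold change was 0.10.

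Among the 11 other subunit genes of the cap 2 were called lower and 0 higher. Psmd14 encodes the deubiquitinase Rpn11, which strips ubiquitin from the substrate before it enters the barrel. It had 2589, 2674, 2948 and 1305 normalized counts in spermatocytes and 1488, 877, 779 and 840 in spermatids. It fell (limma log2 fold change -1.24, SE 0.29, adjusted p = 0.0019) although spermatocyte library 4 lay below spermatid library 1. Without spermatocyte library 4 the log2 fold change of Psmd14 was -1.51 and the cell types did not overlap. Psmd1, for the scaffold subunit Rpn2, had 2427, 2074, 1986 and 2021 against 1542, 1031, 910 and 845, with no overlap. The log2 fold change of Psmd1, -1.01 (SE 0.21, limma adjusted p = 8.6e-04) lay at the threshold and missed it in 7 of 21 alternatives: without spermatid library 3 (-0.94) or 4 (-0.91), without spermatocyte library 1 (-0.95), with TMM (-0.99) or median-of-ratios (-0.97) scaling, and with edgeR (-0.96) and DESeq2 (-0.97) on the recovered reads.

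Psmd3 (-0.97) and Psmd7 (-0.89) lay just under the fold threshold without overlap, as did Psme3 (0.96) and Psmg1 (-0.94) in other parts of the complex, while Psmd1 lay just beyond it. Psmd4 (-0.46), for the ubiquitin receptor Rpn10, and Psmd12 (0.50), for a subunit of the lid, passed the adjusted p alone in opposite directions. Psmd2, Psmd6, Psmd8, Psmd11 and Psmd13 did not pass, with log2 fold changes from -0.33 (Psmd6) to 0.29 (Psmd11). Psmd13 holds within its span an unnamed model of 183 bases with 3340 normalized counts in spermatocytes and 2870 in spermatids, so the reads of that stretch may be split. Over all 17 genes of the cap the sum was 198819 ± 30908 normalized counts in spermatocytes, against 209470 ± 22662 in spermatids (SD over 4 libraries).

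Levels of different genes, set side by side per kilobase of exon, spread widely within each complex. Among the 14 standard 20S genes the means ran in spermatocytes from 154 normalized counts per kilobase for Psma5 to 14067 for Psmb6, with a median of 1619. In spermatids they ran from 159 for Psma5 to 20474 for Psma6, with a median of 1029. Psma6 stood at 3206 in spermatocytes, where Psmb6, Psmb7 and Psmb4 were above it. The 19S genes ran from 683 for Psmd1 to 30472 for Psmc3 in spermatocytes, and from 348 to 33737 for the same genes in spermatids. Exon lengths come from the GENCODE M21 basic annotation of the same build, matched by symbol for all 49 members, and may differ from the deposited models. By total level the members were abundant in both cell types, with a median percentile among tested models of 86.5 in spermatocytes and 84.0 in spermatids.

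**Figure D4:**
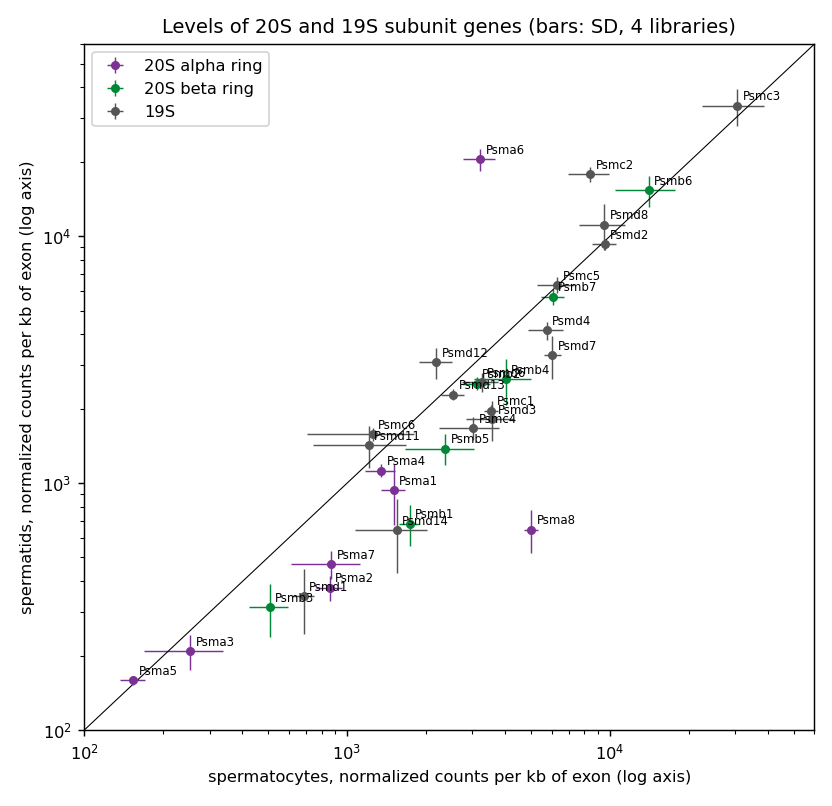
Mean normalized counts per kilobase of exon in spermatids against spermatocytes (both log axes) for the 20S and 19S subunit genes, with SD over 4 libraries; the diagonal marks equal levels. Psma6 lies far above the diagonal and Psma8 far below it, while Psmc3 and Psmb6 are high in both cell types.

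Of the 5 genes of activators and the inhibitor 2 were called higher (40%, beside 32.5% of all tested models) and 0 lower. Psmf1 encodes PI31, a protein that binds the 20S core and was named as its inhibitor. On chromosome 2 from 151715815 to 151741296, it had 4018, 3671, 2831 and 4261 normalized counts in spermatocytes and 14521, 17200, 19508 and 18086 in spermatids. No library overlapped. The mean rose 4.69-fold, and in limma the log2 fold change was 2.24 (SE 0.18, adjusted p = 3.2e-07) and at least 1.73 in each of the 21 alternatives run.

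Psme4 (chromosome 11, 30771775 to 30880353), for PA200, had 10003, 11184, 6126 and 7137 normalized counts in spermatocytes and 15554, 21294, 19764 and 18982 in spermatids. It rose with no overlap (limma log2 fold change 1.17, SE 0.21, adjusted p = 3.2e-04). Spermatocyte libraries 3 and 4, the lower ones, held the most Sertoli markers, and without them the log2 fold change was 0.83 and not called. The part of Sertoli cells in this was not tested. Under the 3 scalings the log2 fold change of Psme4 was 0.60 to 0.76. Psme3, for the nuclear activator PA28 gamma, had 2390, 2750, 3105 and 2217 against 4609, 4296, 5534 and 5997. It lay just under the fold threshold (0.96, SE 0.18, limma adjusted p = 3.8e-04) with no overlap. The log2 ratio of Psme4 to Psme3 was 1.69 ± 0.50 in spermatocytes and 1.89 ± 0.29 in spermatids (difference 0.20, exact two-sided permutation p = 0.60, adjusted 0.60), and its direction turned without spermatocyte library 3 (-0.034).

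Psme1 and Psme2, for the interferon-induced activator PA28 alpha and beta, were low. Psme1 had 91.3 to 201 normalized counts in spermatocytes and 108 to 276 in spermatids, and Psme2 16.7 to 48.1 and 9.01 to 44.8. Neither passed the test (log2 fold changes 0.32 and -0.63). In spermatids both were highest in library 1, as were Psmb8, Psmb9 and Psmb10.

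Of the 3 chaperones of the cap 1 was called higher, with the largest rise among the 47 tested members. Psmd10 encodes gankyrin, which escorts an ATPase of the cap during assembly, and lies on the X chromosome from 140948425 to 140956711. It had 123, 152, 233 and 152 normalized counts in spermatocytes and 1968, 2770, 2741 and 2538 in spermatids. The lowest spermatid library was 8.46-fold above the highest spermatocyte library. The mean rose 15.2-fold, with 165 ± 47.1 against 2504 ± 372 (SD over 4 libraries). In limma the log2 fold change was 3.94 (SE 0.23, adjusted p = 2.4e-08), and it stayed between 3.44 and 4.17 over the alternatives. It is the only X-linked gene among the members. Psmd5 (-0.48) and Psmd9 (0.01), the other chaperones of the cap, were not called.

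Of the 4 chaperones of the 20S core 1 was called lower and 0 higher. Psmg3, for PAC3, had 293, 220, 310 and 427 normalized counts in spermatocytes and 136, 33.6, 66.1 and 38.1 in spermatids. It fell 4.56-fold with no overlap (limma log2 fold change -2.36, SE 0.42, adjusted p = 2.6e-04). Psmg1 (-0.94) and Psmg4 (-0.62), for PAC1 and PAC4, passed the adjusted p alone and were lower, and Psmg2 (0.84), for PAC2, the partner of PAC1 in one dimer, passed it and was higher. Psmc3ip, the meiotic protein taken in by name, stood at 9668 ± 839 and 10072 ± 1588 normalized counts (SD over 4 libraries), a log2 fold change of 0.05 that did not pass.

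Within the spermatid group library 1 lay closest to the spermatocytes. Among the 29 members past the adjusted p, the spermatid library nearest to the spermatocyte values was library 1 in 21 cases, library 2 in 5, library 3 in 3 and library 4 in 0. Library 1 was also the highest spermatid library in the summed markers of spermatocytes (50527 against 32617 to 38589), spermatogonia (4051 against 1980 to 2379), macrophages and blood (5554 against 2662 to 4304), Leydig cells (1099 against 185 to 779) and peritubular and endothelial cells (1542 against 834 to 1178). In Sertoli markers spermatid library 3 was the highest (4594), and library 1 stood at 4430. The part of these cells in the place of library 1 was not tested. Without this library 7 members (14.89%) were higher and 8 (17.02%) lower, beside 32.28% and 30.24% of all models. On the spermatocyte side library 3 was the nearest to spermatids in 12 of the 29, library 2 in 9, and libraries 1 and 4 in 4 each.

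Genes that work with the proteasome were followed in the same fit. Of 26 such genes tested 6 were called higher, 7 lower and 13 neither, beside 32.5% higher and 29.8% lower of all models. Shuttle proteins, which carry ubiquitin-tagged substrates to the proteasome, were among those called higher. Ddi1, a shuttle with a retroviral-type protease fold, had 767, 915, 882 and 728 normalized counts in spermatocytes and 22488, 30845, 36432 and 33061 in spermatids. It rose 37.3-fold (limma log2 fold change 5.20, SE 0.19, adjusted p = 9.5e-10). Ubqlnl, a ubiquilin gene, rose from 949 ± 196 to 19474 ± 3327 (log2 fold change 4.37, limma adjusted p = 3.2e-09; SD over 4 libraries). All 4 spermatid libraries lay above all spermatocyte libraries for both genes.

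The 3 largest falls were those of Ddi2, Pomp and Zfand2a. Pomp, the chaperone that matures the beta ring, had 3303, 3011, 2660 and 4157 normalized counts in spermatocytes and 1065, 772, 617 and 623 in spermatids. It fell 4.27-fold (limma log2 fold change -2.11, SE 0.22, adjusted p = 3.2e-06). Ddi2, a relative of Ddi1, has a short model on chromosome 4 from 141677555 to 141678460 that fell by 2.18 on the log2 scale. A longer model named for both Ddi2 and Rsc1a1, looked at after the first was seen, lies from 141681485 to 141723419 and was at -0.48 (limma adjusted p = 0.058, not called). The fall is therefore that of the short model. Zfand2a, a stress-induced zinc finger gene, fell by 1.86.

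Regulators of proteasome supply were among the others called. Apart from Nfe2l2, these were named after their values were seen. Nfe2l1, for the factor that raises proteasome genes when proteolysis falls short, fell from 7359 ± 1038 to 3467 ± 479 normalized counts (log2 fold change -1.08). Its relative Nfe2l2 rose from 242 ± 92.0 to 1660 ± 294 (log2 fold change 2.84; SD over 4 libraries). Ngly1, the deglycosylase that Nfe2l1 protein needs, rose by 2.23 on the log2 scale. Vcp, the segregase that feeds substrates to the proteasome (-1.53), Ubqln2 (-1.85) and Fbxo7, a partner of PI31 (-1.56), fell, while Ufd1l (1.77) and Txnl1 (1.07) rose. Ubqln2 had 502, 862, 2391 and 1095 normalized counts in the spermatocyte libraries, in the order of their summed Sertoli markers (25238, 43171, 127784 and 62816). Nfe2l1 and Nfe2l2 had the same order, while Vcp and Fbxo7 did not. The part of Sertoli cells in these levels was not tested. The ubiquitin receptor gene Adrm1 (0.10) and the deubiquitinase genes Uchl5 (0.17) and Usp14 (0.35) were not called.

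**Figure D5:**
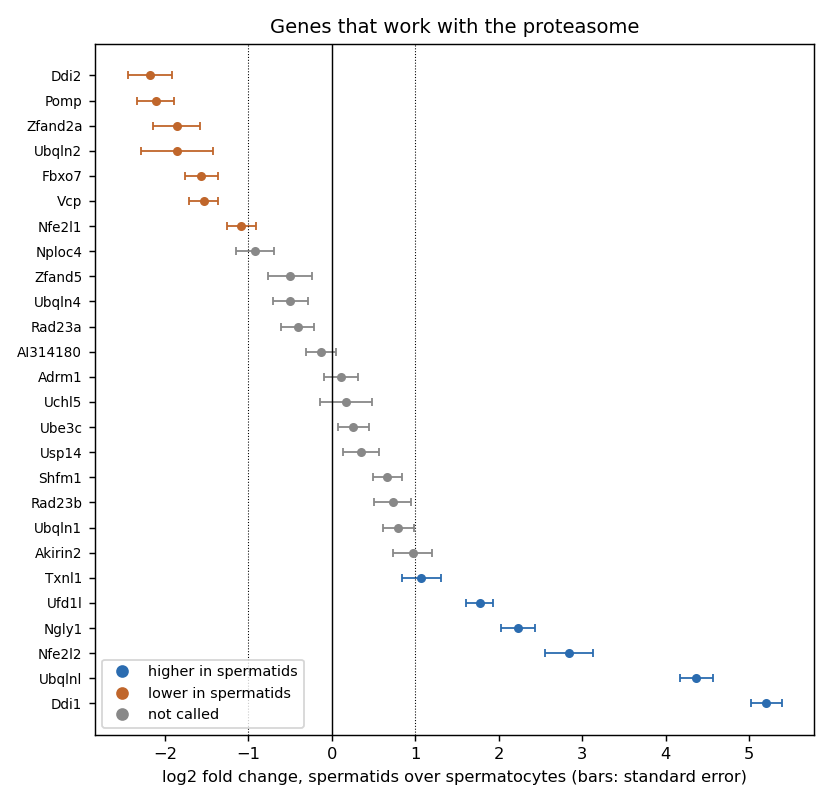
Log2 fold change of spermatids over spermatocytes for 26 genes that work with the proteasome, with standard errors (4 libraries of each cell type), ordered by size. The 7 called falls reach -2.18 for the Ddi2 model and the 6 called rises reach 5.20 for Ddi1, with 13 uncalled genes between the dotted lines at 1 in either direction.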

How the data were processed

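The authors deposited a normalized signal: whole reads per gene model over 1 size factor for each library. Coordinates are on mm10, per the file headers. The submitters' processing notes name STAR 2.4.0, SAMtools, Picard, FastQC and DESeq. The tool that counted reads and its strand setting were not given in the sources used here, so reads of overlapping genes (17 members have one) and near-identical copies may be mixed. Values were whole multiples of a step in each library (100% within 10% of a step), which gave the reads back. Another 8 columns of per-sample values were not used. Tested were the 28735 models that reached 10 normalized counts in 4 libraries or more, on log2(normalized count + 1), with limma 3.58.1 (trend, robust) in R 4.3.3, spermatids minus spermatocytes. Adjusted p-values are Benjamini-Hochberg over all tested models. Pair ratios used exact two-sided permutation tests (SciPy 1.17.1). Only the limma fit was run on simulated counts, with few changed genes and a fixed spread, which does not check the choice of scale.

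Every member could be named. Values per library are given for paired genes and for the called member with the largest rise and fall in each group. Of the associated genes, the 3 with the largest rises and falls among those reported were named; 1 gene of the list is not reported here. Other genes were named after their values were seen. Members and lists were chosen with earlier results of these data known. Alternatives were pseudocounts of 0.5 and 8, a filter of 50 and none, TMM, median-of-ratios, equal-total and quantile scaling, a GC correction, limma without trend, edgeR 4.0.16 and DESeq2 1.42.0 on recovered reads, and leaving out libraries. The fit on models with a GC content but no correction was added after seeing the data.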

Additional observations from a re-analysis of the deposited data

Results flagged for a closer look

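In 4 of the 98 groups of 4 libraries examined, a single library stood far from the other 3 by Dixon's criterion; chance gives about 1 in 20 groups. Psma1 had 2164 normalized counts in spermatocyte library 3 against 1761 to 1785 in the others. Psmc4 had 6029 in spermatocyte library 4 against 3740 to 3853. In spermatid library 1, Psmd6 had 4011 against 3375 to 3447 and Psmd14 had 1488 against 779 to 877 in the others.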

How the results depend on the processing

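The number of members higher in spermatids was between 4 and 7 in every alternative run. These were 8.51% to 14.89% of those tested, beside 24.44% to 35.29% of all models. The number lower was 18 with equal total reads and 17 with quantile normalization, where the median of all models was lower too, and 5 to 8 in the others. With equal total reads the lower share was 38.3% beside 37.4% of all models, and with quantile normalization 36.17% beside 36.25%. In the others it was 10.64% to 17.02%, beside 21.07% to 30.24% of all models. Psma2, Psma6, Psma8, Psmb1, Psmd10, Psmd14, Psmf1 and Psmg3 kept their call in 21 of 21 alternatives. Psmc2 and Psme4 kept it in 17 and Psmd1 in 14. Associated genes called numbered between 4 and 8 in each direction. The log2 fold changes that turned sign were of members not called. After the GC correction these were Psma5 (-0.11), Psmc6 (-0.58), Psmd11 (-0.42), Psmd9 (-0.028) and Psmc3ip (-0.063). With equal total reads they were Psma5 (-0.38), Psmb6 (-0.29), Psmc3 (-0.26), Psmc5 (-0.42), Psmd8 (-0.22), Psmd11 (-0.14), Psmd9 (-0.43), Psme1 (-0.12) and Psmc3ip (-0.39). Median-of-ratios scaling turned Psmd2 (0.0041). With quantile normalization the members that turned were Psma5 (-0.34), Psmb6 (-0.43), Psmc3 (-0.27), Psmc5 (-0.53), Psmd8 (-0.33), Psmd11 (-0.13), Psmd12 (-0.040), Psmd9 (-0.38), Psme1 (-0.071) and Psmc3ip (-0.52). Leaving out spermatocyte libraries 3 and 4 turned Psmc5 (-0.0046) and Psmd9 (-0.046). When single libraries were left out, Psmc5 ranged from -0.084 to 0.11, Psmd9 ranged from -0.065 to 0.057, Psmc3ip ranged from -0.0084 to 0.17, Psma5 ranged from -0.0048 to 0.11, Psmc3 ranged from -0.021 to 0.31 and Psmd2 ranged from -0.11 to 0.0062. The difference in the log2 ratio of Psme4 to Psme3 ranged from -0.034 to 0.33 and was -0.15 without spermatocyte libraries 3 and 4. The causes were not tested. No paired analysis was possible because the labels give the cell types no shared replicate numbers. With 3 libraries against 4 the smallest exact p is 0.0571, so no ratio can pass there. Psmb8, Psmb9 and Psmb11, with 0 to 50 reads in a library, are limited by depth.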
